A study of Mus musculus with 17 samples.

Results

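The 48 genes described here encode the protein folding machinery of the endoplasmic reticulum (ER), the ER-associated degradation pathway (ERAD) and the sensors of the unfolded protein response (UPR). They were taken from a list of gene names, and each was matched by its Ensembl identifier in both deposited count tables, of 78239 identifiers in the first table and 73212 in the second. By role, 11 are HSP70- or HSP90-class chaperones and their partners, 3 act in the lectin cycle that folds glycoproteins, 10 are disulfide isomerases or thioredoxin-domain proteins, 3 are peptidyl-prolyl isomerases, 15 act in ERAD, and 6 are sensors, their transcription factors and *Wfs1*.

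The libraries came from isolated pancreatic islets of male mice. The first table held 4 groups of 3 libraries: wildtype mice (Pax4 WT) and mice homozygous for *Pax4* R192H (Pax4 HH), each at 12 weeks of age on a standard chow diet (SCD) and at 16 weeks of age after 4 weeks of a high-fat diet (HFD). These mice carry the substitution R200H in the endogenous mouse gene, the counterpart of R192H in human PAX4, a transcription factor of endocrine pancreas development. The second table held 2 control libraries and 3 libraries of *Pax4* βiKO (Pax4-BiKO), all at 20 weeks of age after 8 weeks of an HFD. Both groups of the second table were homozygous for the floxed *Pax4* allele and received tamoxifen, and the βiKO mice alone also carried *Pdx1*-driven, tamoxifen-inducible Cre, so that the loss of *Pax4* and the presence of Cre cannot be told apart. Diet and age changed together in the first table and cannot be told apart either. The labels call the libraries biological replicates without saying whether a library is 1 mouse or a pool, so the p-values measure only the spread between these libraries. *Pax4* itself was listed at 0 counts in all 12 and all 5 libraries, so it does not check the genotypes.

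Proteins destined for secretion, such as insulin, enter the ER unfolded. There the HSP70-class chaperone BiP (*Hspa5*) and its partners hold them, disulfide isomerases form their disulfide bonds, and lectin chaperones retain glycoproteins until they are folded. Chains that fail to fold are recognised, sent back through the membrane and degraded, which is ERAD. The sensors IRE1 (*Ern1*), ATF6 and PERK (*Eif2ak3*) respond to unfolded chains. IRE1 activates XBP1 by splicing its mRNA, and XBP1 and ATF6 in turn induce chaperone and ERAD genes. The β cell, which makes insulin in large amounts, is known for its high demand on this machinery.

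The 12 libraries of the first table held from 24268150 to 42679673 counts each, and the 5 of the second from 28618787 to 31887499. The lowest count of a member in a library was 128, and all 48 members passed the filter on low counts in both tables, among 19137 and 20167 genes tested. The 2 most abundant identifiers of the first table took between 36.2% and 53.3% of the counts. The trimmed mean of M values (TMM), the scaling behind the CPM values (library-size-scaled counts) used here, gave factors of 0.69 to 0.82 for HFD-fed *Pax4* R192H islets and of 0.89 to 1.3 for the other 9 libraries. All fold changes are therefore relative to the bulk of the tested genes. When libraries were scaled to their totals instead, the median log2 fold change of all tested genes moved from -0.01 to -0.40 between the genotypes on HFD and from -0.06 to -0.79 between the diets in *Pax4* R192H. The median of the members, taken relative to the median of all tested genes, was 0.59 and 0.80 with TMM and 0.60 and 0.79 without it. A change of scaling shifts the log2 fold changes of all genes by nearly the same amount. This difference could therefore hardly move, and it does not check the choice of scaling.

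The tissue label was checked on marker genes. The 10 β cell markers, none of which was at 0 in a library, summed to 45090 to 110500 CPM across the first table and to 121900 to 138100 CPM across the second. The 32 markers of acinar cells, the enzyme-secreting cells of the exocrine pancreas that surround islets, were also present in every library. They summed to 106900, 39060 and 40890 CPM in HFD-fed *Pax4* R192H islets, to 20210, 26250 and 17060 CPM in HFD-fed wildtype islets, and to between 13510 and 26310 CPM in the 6 SCD-fed libraries. Acinar markers were therefore highest in the same 3 libraries in which most members were highest, and their part in the members' differences was not tested beyond a fit with their level as a covariate, given beside each comparison. In bulk islets, a change in the share of a cell type and a change in RNA per cell cannot be told apart. In the second table the acinar sums were 112700 and 25120 CPM in the controls and 87630, 17880 and 23320 CPM in *Pax4* βiKO.

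The members differed widely in abundance. In SCD-fed wildtype islets *Hspa5* led with a mean of 350.4 CPM per kb of exon sequence, followed by *P4hb*, the gene of the classic protein disulfide isomerase, with 315 CPM per kb, by *Hsp90b1*, which encodes the HSP90-class chaperone GRP94, with 212 CPM per kb, and by the lectin chaperone gene *Calr* with 188 CPM per kb. *Hspa5* alone made up 15.6% of the summed CPM of all members in that group. Together the members took between 1.71% and 2.2% of the counts outside the 2 most abundant identifiers in SCD-fed wildtype islets, between 1.7% and 2.07% in SCD-fed *Pax4* R192H islets, between 1.87% and 2.19% in HFD-fed wildtype islets and between 2.44% and 2.9% in HFD-fed *Pax4* R192H islets. The last group lay above all others of its table on this measure, which uses no TMM factor. As a share of all counts, the 2 identifiers included, it held 1.19% to 1.47% and overlapped with SCD-fed *Pax4* R192H islets (0.91% to 1.29%), while the wildtype groups held 0.98% to 1.18% on SCD and 0.99% to 1.12% on HFD. In the second table the shares were 1.54% and 1.76% in the controls and between 1.95% and 2.09% in *Pax4* βiKO.

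A minority of the members hold a promoter element of the ER stress response. The members were chosen by name for known roles in folding, ERAD and the UPR. Their shares of such elements are therefore not independent of that choice. The ER stress response element (ERSE), known as the element bound by NF-Y together with ATF6 or XBP1, was searched as CCAAT, then 9 bases, then CCACG on either strand, in RefSeq promoter windows of 300 bases (250 before to 50 after a transcription start, GRCm38.p6). A window was at hand for 41 of the 48 members, and 9 of these 41 (22.0%) held the element, against 37 of 27025 genes (0.137%). ERSE-II, searched as ATTGG, 1 base, then CCACG, was found in 2 members (4.9%, against 0.0444% of genes), and TGACGTG, the core of the UPR element (UPRE), in 5 members (12.2%, against 2.22% of genes). Counting each gene once, 15 of the 41 members (36.6%) and 2.39% of all genes held at least 1 of the 3. No match of one motif overlapped a match of another. The 10 ERSE matches are printed 5′ to 3′ on the strand that reads CCAAT first, with 6 bases on each side and the 2 boxes in capitals. *Hsp90b1* has a pair of them.
Derl3: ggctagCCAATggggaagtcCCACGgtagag
Creld2: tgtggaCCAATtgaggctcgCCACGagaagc
Hspa5: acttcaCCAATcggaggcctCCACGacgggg
Hsp90b1: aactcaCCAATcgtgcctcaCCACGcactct
Hsp90b1: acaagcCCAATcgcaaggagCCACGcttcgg
Dnajc3: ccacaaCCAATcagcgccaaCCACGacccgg
Pdia6: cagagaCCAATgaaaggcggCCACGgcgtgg
Calr: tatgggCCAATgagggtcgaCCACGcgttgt
Canx: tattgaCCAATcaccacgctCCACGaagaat
Syvn1: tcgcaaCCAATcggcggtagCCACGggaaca
The boxes are fixed by the search, and the 9 bases between them differ in every match. The ERSE-II matches, with ATTGG and CCACG in capitals, were these.
Dnajb11: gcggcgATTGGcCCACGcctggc
Herpud1: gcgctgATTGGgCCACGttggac
Set in its whole window, the match of *Derl3*, at chr10:75893242-75893260, ends 138 bases before the start. The window at chr10:75893148-75893447, on the plus strand, holds it on the minus strand, in capitals.
Derl3 window: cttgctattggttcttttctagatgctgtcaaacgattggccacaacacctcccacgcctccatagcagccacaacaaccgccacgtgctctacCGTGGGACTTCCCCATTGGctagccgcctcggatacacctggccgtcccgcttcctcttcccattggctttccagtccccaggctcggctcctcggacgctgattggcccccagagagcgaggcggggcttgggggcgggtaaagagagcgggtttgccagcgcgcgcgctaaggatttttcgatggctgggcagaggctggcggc
In the *Hspa5* window, chr2:34771840-34772139 on the plus strand, the capitals mark TGACGTG first and the ERSE, at chr2:34772025-34772043, second.
Hspa5 window: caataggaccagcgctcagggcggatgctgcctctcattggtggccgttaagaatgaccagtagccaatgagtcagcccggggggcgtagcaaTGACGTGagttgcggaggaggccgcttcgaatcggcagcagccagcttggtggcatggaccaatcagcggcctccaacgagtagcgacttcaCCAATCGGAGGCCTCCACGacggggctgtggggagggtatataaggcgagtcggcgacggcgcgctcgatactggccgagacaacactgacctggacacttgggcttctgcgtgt
A match describes letters in a window and does not show that a factor binds there.

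The first comparison asked how the members differed between genotypes under HFD. In HFD-fed *Pax4* R192H islets 15 of the 48 members were called higher than in wildtype, by edgeR's quasi-likelihood test (adjusted p under 0.05, log2 fold change over 0.5 in size), and none was called lower. The members' summed CPM was 17836 ± 551 (SD, n = 3) against 11015 ± 1530 (SD, n = 3). Of all 19137 tested genes, 1.46% were called higher and 0.820% lower. The median log2 fold change was 0.57 over the members and -0.01 over all tested genes, and 46 of the 48 members had a fold change above 0 relative to the bulk of tested genes, while with libraries scaled to their totals 29 had one, the members' median was 0.19 (-0.40 over all tested genes) and 3 members were called higher (0.345% of tested genes). In 36 members every *Pax4* R192H library lay above every wildtype library, as in 13.0% of tested genes. DESeq2 called 25 members higher, against 3.50% of tested genes, and these 25 included all 15 called by edgeR. The calls were spread over 4 roles: 6 of 11 chaperones (*Hspa5*, *Hsp90b1*, *Hyou1*, *Dnajc3*, *Sdf2l1* and *Cnpy2*), 3 of 10 disulfide isomerases (*Creld2*, *P4hb* and *Pdia6*), 2 of 3 prolyl isomerases (*Fkbp11* and *Ppib*) and 4 of 15 ERAD genes (*Derl3*, *Edem1*, *Edem2* and *Erlec1*). No call was made among the 3 lectin genes or the 6 sensor genes. The count depended on single libraries. It was 5 without wildtype replicate 1 (0.694% of all tested genes called in either direction, against 2.28% with every library), 20 without wildtype replicate 2 (2.45%) and 3 without wildtype replicate 3 (0.458%). It was 6 without each *Pax4* R192H replicate in turn (0.656%, 0.525% and 0.772%), so that calls among all genes moved along with those among the members. With the mean log2 CPM of the acinar markers as a covariate no gene of all 19137 was called, members included, while the members' median log2 fold change stayed at 0.57 and the lowest adjusted p of a member was 0.356 (edgeR).

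**Figure D1:**
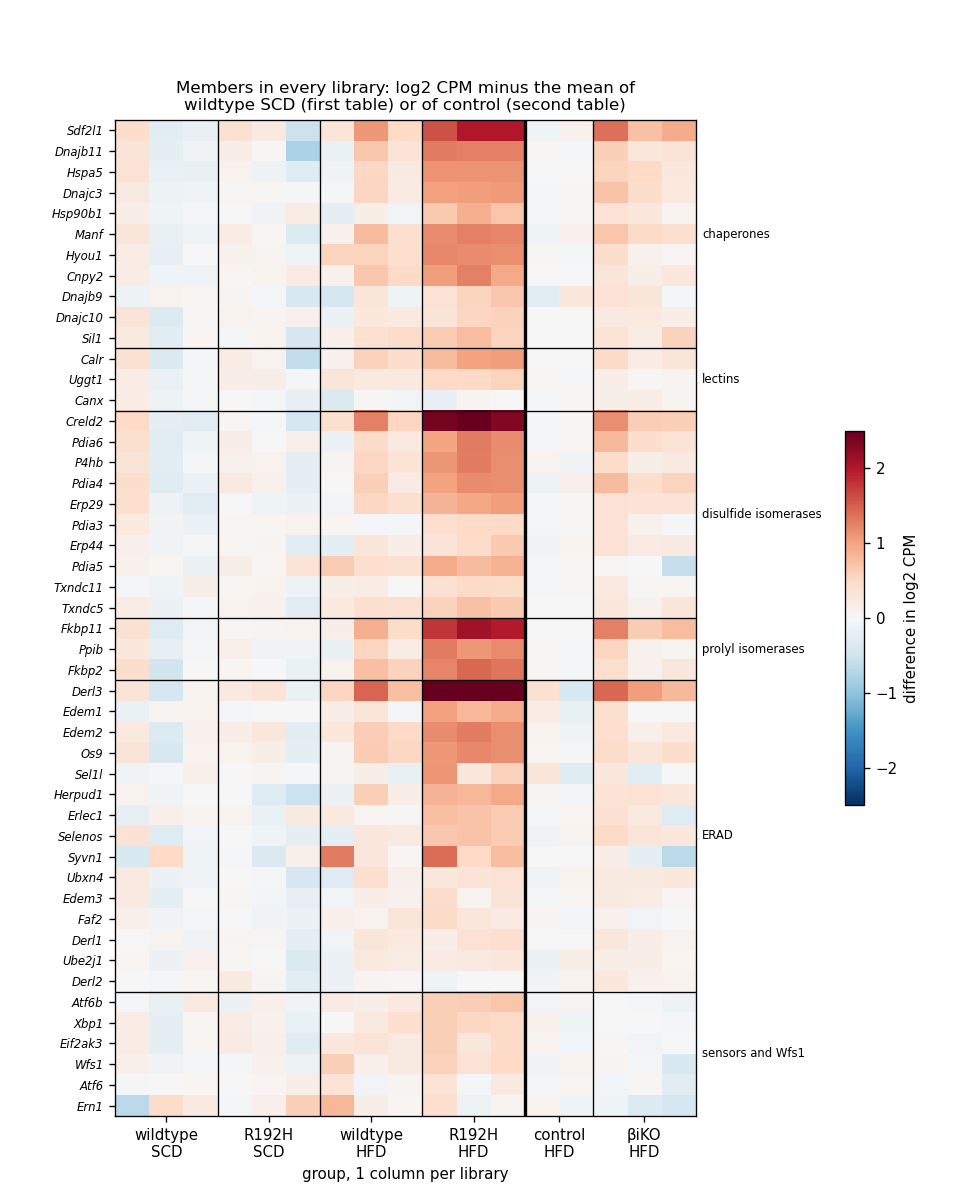
Log2 CPM of each member (rows, by role group) in each library (columns), minus the mean of SCD-fed wildtype libraries for the first table and of the control libraries for the second; the color scale is cut at 2.5 in both directions. The 3 HFD-fed *Pax4* R192H libraries are reddest in *Derl3*, *Creld2*, *Fkbp11* and *Sdf2l1*, and near 0 in *Canx*, *Derl2* and *Atf6*; all values are relative to the bulk of tested genes.

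Chaperones were the role with the most calls. *Hspa5* (chromosome 2, 34771970 to 34777547 in GRCm38, plus strand) had 3159, 3176 and 3170 CPM in HFD-fed *Pax4* R192H islets and 1377, 2081 and 1702 CPM in HFD-fed wildtype islets. The 3 *Pax4* R192H libraries were almost equal, and the highest wildtype library stayed below all of them, at a 1.84-fold difference (log2 0.88, standard error 0.20, edgeR adjusted p = 0.0344). On SCD the same gene had 1877, 1292 and 1277 CPM in wildtype and 1543, 1336 and 1184 CPM in *Pax4* R192H islets. *Sdf2l1*, whose product works with ER DnaJ co-chaperones, showed the largest fold among chaperones. It had 240.3, 320.4 and 319 CPM in *Pax4* R192H and 99.4, 169 and 112 CPM in wildtype islets on HFD, with a difference of 1.21 on the log2 scale (standard error 0.27, edgeR adjusted p = 0.0336), and on SCD 104, 93.0 and 54.8 CPM in *Pax4* R192H and 109, 66.4 and 70.8 CPM in wildtype islets. The groups on HFD did not overlap, and the highest library of all 9 others was wildtype replicate 2 on HFD. *Hyou1*, an HSP110-class nucleotide exchange factor of BiP, had 1166, 1144 and 1131 CPM in *Pax4* R192H and 739.5, 739 and 679 CPM in wildtype islets (log2 0.67, standard error 0.13, edgeR adjusted p = 0.0232). Its 6 SCD libraries lay between 436 and 578 CPM, below all 6 HFD libraries. *Dnajc3*, which encodes the co-chaperone P58IPK, an inhibitor of PERK, had 871, 893.5 and 897 CPM in *Pax4* R192H and 418, 621 and 494 CPM in wildtype islets (log2 0.80, standard error 0.16, edgeR adjusted p = 0.0218). Both *Hsp90b1* (log2 0.79, edgeR adjusted p = 0.0168) and *Cnpy2*, a small saposin-like ER protein (log2 0.65, edgeR adjusted p = 0.0414), were called as well. *Manf*, an ER-resident protein that is also secreted, missed edgeR's threshold with 423, 442 and 431 CPM in *Pax4* R192H and 198.5, 323 and 246 CPM in wildtype islets (log2 0.76, standard error 0.19, edgeR adjusted p = 0.0562). DESeq2 called *Manf* (DESeq2 adjusted p = 0.00369). The remaining 4 chaperones, *Dnajb11*, *Dnajb9*, *Dnajc10* and *Sil1*, did not pass edgeR's test either, although DESeq2 called *Dnajb11* and *Dnajb9* (DESeq2 adjusted p = 0.00445 and 0.035), with log2 fold changes between 0.32 and 0.94. None of the 11 chaperones overlapped between the groups, with *Pax4* R192H higher, as in 13.0% of tested genes.

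The lectin genes were not called. *Calr* had 921, 1061 and 1093 CPM in HFD-fed *Pax4* R192H islets and 574, 792 and 717 CPM in HFD-fed wildtype islets, which did not overlap (log2 0.56, standard error 0.23, edgeR adjusted p = 0.229). On SCD it had 601, 562 and 344 CPM in *Pax4* R192H and 689, 415 and 520.1 CPM in wildtype islets, which overlapped. *Uggt1*, whose product re-glucosylates misfolded glycoproteins, differed by 0.25 on the log2 scale, with a standard error of 0.12. *Canx*, the membrane-bound partner of calreticulin, had a log2 fold change of 0.09 with an approximate 95% interval from -0.19 to 0.37. *Canx* carries an ERSE match as *Calr* does, and its libraries overlapped.

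Among disulfide isomerases, *Creld2*, whose product has EGF-like domains, stood out. It had 302.5, 349 and 288 CPM in HFD-fed *Pax4* R192H islets and 76.8, 138 and 83.7 CPM in HFD-fed wildtype islets, 3.15-fold apart (log2 1.65, standard error 0.25, edgeR adjusted p = 0.00562). On SCD it had 81.9, 49.0 and 48.2 CPM in wildtype and 59.8, 56.9 and 43.3 CPM in *Pax4* R192H islets, so that the 3 *Pax4* R192H libraries on HFD stood apart from the other 9. *P4hb* had 1913, 2144 and 1989 CPM against 929, 1273 and 1119 CPM (log2 0.86, standard error 0.18, edgeR adjusted p = 0.0288). *Pdia6*, an isomerase that also binds IRE1, was called at 0.95 on the log2 scale (edgeR adjusted p = 0.0257). The other 7 isomerases had log2 fold changes between 0.31 (*Txndc5*) and 0.83 (*Pdia4*), without overlap between the groups and with adjusted p values (edgeR) between 0.0538 (*Pdia4*) and 0.267 (*Txndc5*). Among them DESeq2 called *Pdia4* and *Erp29* (DESeq2 adjusted p = 0.0027 and 0.0162).

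Both prolyl isomerases called by edgeR were well separated. *Fkbp11* had 85.1, 106 and 97.6 CPM in HFD-fed *Pax4* R192H islets and 27.7, 46.2 and 33.7 CPM in wildtype islets (log2 1.42, standard error 0.20, edgeR adjusted p = 0.00429). *Ppib*, the ER cyclophilin B, had 186, 163 and 175 CPM against 67.3, 112 and 87.1 CPM (log2 0.98, standard error 0.18, edgeR adjusted p = 0.0138). *Fkbp2* had 59.9, 69.7 and 64.7 CPM against 27.2, 43.5 and 38.1 CPM and was not called by edgeR (log2 0.84, standard error 0.21, edgeR adjusted p = 0.053). DESeq2 called *Fkbp2* (DESeq2 adjusted p = 0.00432). In all 3 genes the lowest *Pax4* R192H library exceeded the highest wildtype library, as in 13.0% of tested genes.

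ERAD genes divided into members with clear differences and members near 0. *Derl3*, one of 3 derlins that move chains out of the ER, had the largest fold change of all members. It had 39.6, 41.9 and 38.9 CPM in HFD-fed *Pax4* R192H islets and 7.97, 15.2 and 9.32 CPM in HFD-fed wildtype islets (3.71-fold, log2 1.89, standard error 0.24, edgeR adjusted p = 0.00329), and between 4.10 and 6.90 CPM in the 6 SCD libraries. Per kb of exon it ranked 47 of 48 members in SCD-fed wildtype islets, at 2.82 CPM per kb. The other derlins, *Derl1* (log2 0.15, 95% interval -0.11 to 0.40) and *Derl2* (log2 -0.01, 95% interval -0.27 to 0.24), were not called. *Edem1* and *Edem2*, mannosidase-like proteins that mark glycoproteins for disposal, were called. *Edem1* had 154, 134 and 143 CPM against 85.2, 93.8 and 74.1 CPM (log2 0.77, standard error 0.12, edgeR adjusted p = 0.00681), and *Edem2* had 167, 179 and 165 CPM against 88.1, 112 and 103 CPM (log2 0.75, standard error 0.17, edgeR adjusted p = 0.0392). The third of the family, *Edem3*, differed by 0.22 on the log2 scale (edgeR adjusted p = 0.492) with overlapping groups. *Erlec1*, a lectin of the ERAD complex, was called at 0.59 on the log2 scale (edgeR adjusted p = 0.0384). Its relative *Os9*, the ERAD member with the highest mean CPM in the first table, had 308, 331 and 322 CPM against 151, 225 and 207 CPM, and it missed edgeR's threshold (log2 0.72, standard error 0.19, edgeR adjusted p = 0.0645). DESeq2 called *Os9*, and also *Herpud1* and *Selenos* (DESeq2 adjusted p = 0.00635, 0.0129 and 0.0326). The core ubiquitin ligase pair was not called by edgeR, while DESeq2 called *Sel1l* (DESeq2 adjusted p = 0.00961): *Sel1l* differed by 0.68 on the log2 scale (standard error 0.18) and *Syvn1*, which encodes the ligase HRD1, by 0.29 (standard error 0.33).

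The sensors and their transcription factors, *Xbp1*, *Atf6*, *Atf6b*, *Ern1*, *Eif2ak3* and the ER membrane protein gene *Wfs1*, showed the smallest median log2 fold change of the 6 roles at 0.17, and none was called by edgeR or DESeq2. *Atf6b*, a relative of *Atf6*, had the largest difference among them, with 16.6, 16.9 and 17.9 CPM in HFD-fed *Pax4* R192H islets and 12.7, 12.3 and 13.1 CPM in wildtype islets (log2 0.43, standard error 0.14, unadjusted p = 0.00708 and adjusted p = 0.118 by edgeR). Its groups did not overlap. *Xbp1* had 275, 260.2 and 257 CPM in HFD-fed *Pax4* R192H islets and 183, 215 and 242.5 CPM in wildtype islets, which did not overlap (log2 0.31, standard error 0.15, edgeR adjusted p = 0.331). Counts per gene hold no information on *Xbp1* splicing. *Atf6* had 128, 99.2 and 118 CPM against 129, 97.0 and 107 CPM (log2 0.05, 95% interval -0.20 to 0.31), and *Ern1* had 63.0, 43.3 and 49.5 CPM against 83.7, 51.9 and 48.8 CPM (log2 -0.24, 95% interval -0.79 to 0.30). *Eif2ak3* had 67.6, 53.8 and 61.6 CPM against 53.3, 55.2 and 51.7 CPM (log2 0.19), and *Wfs1*, mutated in Wolfram syndrome, had 33.4, 28.8 and 31.3 CPM against 33.9, 24.4 and 26.0 CPM (log2 0.15). These 4 genes overlapped between the genotypes, and the direction of *Xbp1*, *Atf6*, *Eif2ak3* and *Wfs1* turned negative when libraries were scaled to their totals.

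**Figure D2:**
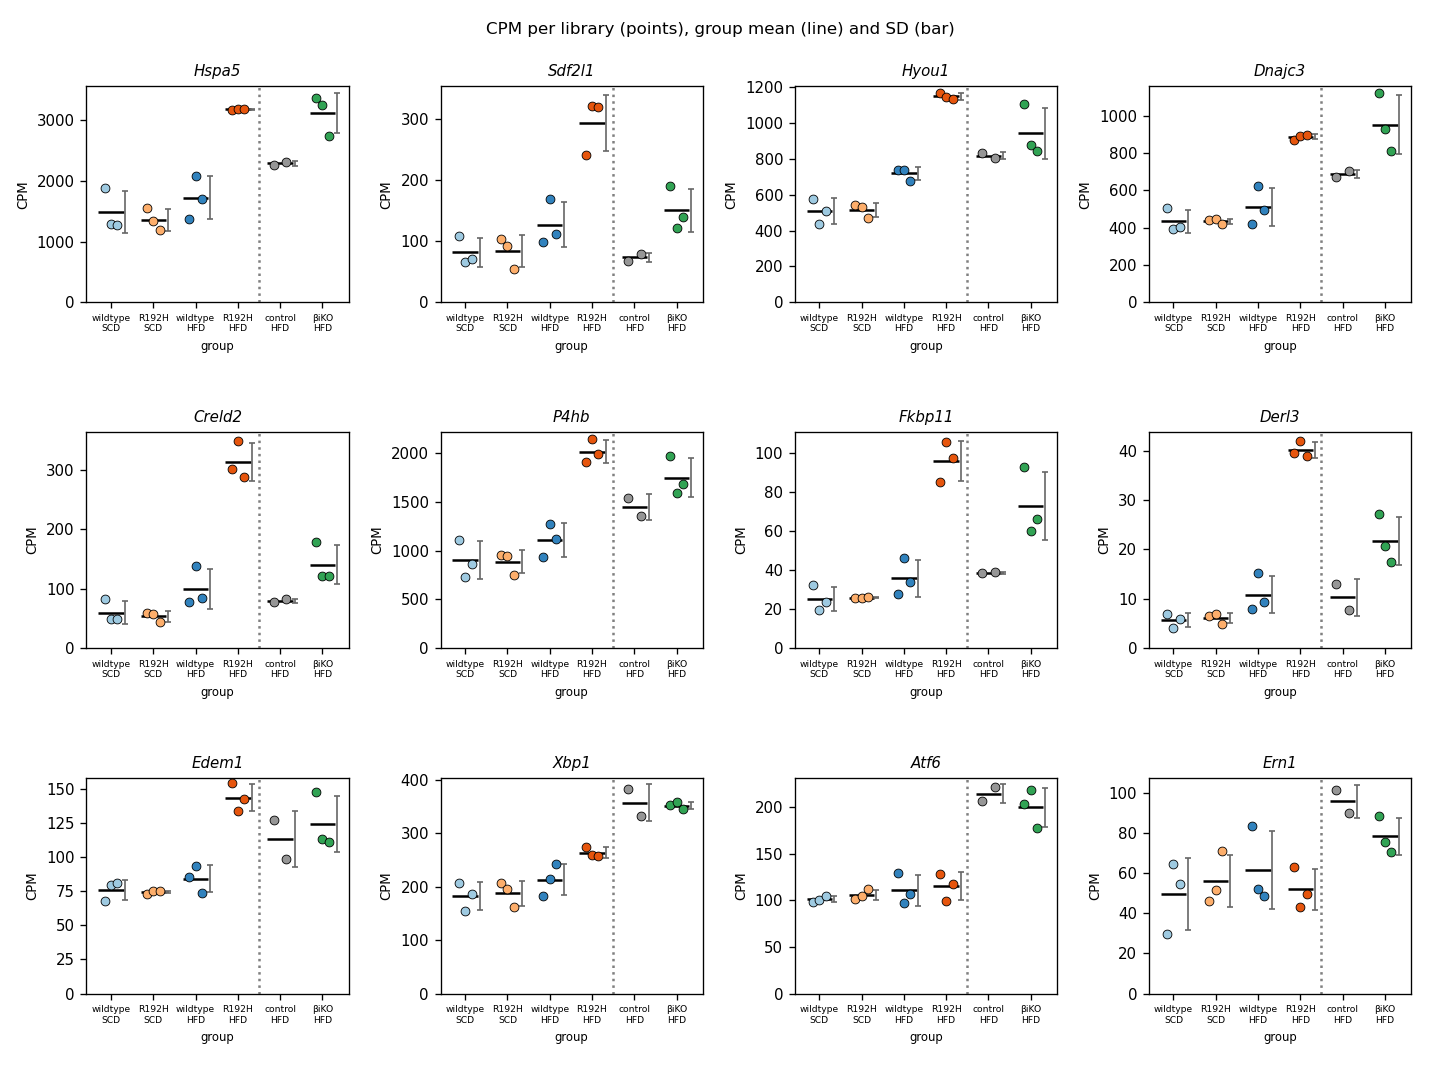
CPM of 12 members in every library, with the group mean as a line and the SD as a bar; the dotted line separates the first table from the second, whose levels were normalized on their own. The HFD-fed *Pax4* R192H libraries lie above all others of their table in the first 9 genes and *Xbp1*, and overlap with them in *Atf6* and *Ern1*; CPM values are relative to the bulk of tested genes, and scaling to total counts turns the HFD difference of *Xbp1*.

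On SCD the genotypes did not differ in any member by the same rule. None of the 48 was called by edgeR or DESeq2, and none had an unadjusted p below 0.05, against 0% of tested genes called by edgeR, 0.0993% by DESeq2 and 3.28% with an unadjusted p below 0.05. In none of them did the groups separate, as they did, in either direction, in 7.83% of tested genes. The members' log2 fold changes lay between -0.28 (*Herpud1*) and 0.18 (*Pdia5*), with a median of -0.02, which lay between -0.09 (without wildtype replicate 2) and 0.09 (without wildtype replicate 1) when 1 library was left out. For *Derl3* the 6 values on SCD were 6.87, 4.10 and 5.87 CPM in wildtype and 6.41, 6.90 and 4.89 CPM in *Pax4* R192H islets. With the acinar covariate no gene was called either, and the median was -0.01. *Hspa5* differed by -0.13 on the log2 scale (standard error 0.19), with a 95% interval from -0.51 to 0.25.

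The interaction of genotype and diet tests whether the genotype difference on HFD exceeds that on SCD. No member was called, against 0.131% of tested genes. The lowest adjusted p was 0.0576, for *Derl3* (interaction 1.77 on the log2 scale, standard error 0.34) and *Creld2* (1.81, standard error 0.34), by edgeR. An unadjusted p below 0.05 in the direction of a larger difference on HFD was found for 27 members and for 6.82% of tested genes. DESeq2 called 11 members in that direction, against 1.21% of tested genes: *Creld2*, *Derl3*, *Dnajc3*, *Edem1*, *Fkbp11*, *Herpud1*, *Hsp90b1*, *Hspa5*, *Hyou1*, *P4hb* and *Ppib*. Without wildtype SCD replicate 2 edgeR called 3 members (0.225% of all tested genes), and without wildtype HFD replicate 2 it called 5 (0.498%). With the acinar covariate no gene was called, and the members' median was 0.56, beside 0.60 without it.

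The diets were compared within each genotype. In *Pax4* R192H islets 32 members were called higher on HFD and none lower, against 9.75% of tested genes called higher. The 32 included all 15 members called between the genotypes on HFD, a comparison that shares the HFD-fed *Pax4* R192H libraries. In 44 members every HFD library lay above every SCD library, as in 21.3% of tested genes. The calls took in 10 of 11 chaperones, 8 of 10 disulfide isomerases, all 3 prolyl isomerases, 9 of 15 ERAD genes, *Calr* among the lectins and *Atf6b* among the sensors. The largest log2 fold changes were 2.72 for *Derl3* (standard error 0.25), 2.55 for *Creld2* (standard error 0.26), 1.90 for *Fkbp11* (standard error 0.20) and 1.80 for *Sdf2l1* (standard error 0.27). *Canx*, *Derl2*, *Atf6* and *Ern1* were the members whose diets overlapped, with log2 fold changes between -0.11 and 0.12. The members' median of 0.74, against -0.06 for all tested genes, was -0.001 when libraries were scaled to their totals. Under that scaling 1.77% of all tested genes were called higher and 44.9% lower, against 5 members called higher and 4 lower (*Canx*, *Derl2*, *Atf6* and *Ern1*). In all, 22 members changed sign, and of those called with TMM *Hsp90b1*, *Dnajb9*, *Pdia5*, *Txndc5*, *Erp44*, *Sel1l*, *Erlec1* and *Atf6b* turned to log2 fold changes between -0.20 and -0.0052. With the acinar covariate 3 members were called, against 0.287% of all tested genes (15.7% without it), and the median stayed at 0.74.

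The SCD values behind these differences overlapped between the genotypes. *Fkbp11* had 25.6, 25.7 and 26.3 CPM in SCD-fed *Pax4* R192H islets and 32.2, 19.7 and 23.6 CPM in SCD-fed wildtype islets, and its difference between the diets in *Pax4* R192H was 1.90 (standard error 0.20, edgeR adjusted p = 0.000145). *Ppib* had 83.9, 71.8 and 71.8 CPM and 91.8, 66.2 and 73.9 CPM (log2 1.20, edgeR adjusted p = 0.00085), in the same order of genotypes, and *Fkbp2* had 26.6, 25.8 and 22.8 CPM and 34.9, 18.7 and 25.9 CPM (log2 1.37, edgeR adjusted p = 0.00106). For these 3 prolyl isomerases, which help proline-containing chains to fold, every HFD value given above for *Pax4* R192H exceeded all 6 SCD values. Among chaperones *Hyou1* had 542, 531 and 471 CPM and 578, 436 and 511 CPM (log2 1.16, edgeR adjusted p = 0.000247). *Dnajc3* had 438, 446 and 419 CPM and 506, 392 and 402 CPM (log2 1.03, edgeR adjusted p = 0.00105), and *Manf* had 209.7, 192.4 and 147 CPM and 227, 163 and 172 CPM (log2 1.24, edgeR adjusted p = 0.00118). Their SCD libraries also overlapped between the genotypes while all stayed below the HFD-fed *Pax4* R192H libraries. *P4hb* had 959, 947 and 753 CPM and 1111, 728 and 863 CPM (log2 1.19, edgeR adjusted p = 0.00113), and among ERAD genes *Edem1* had 73.3, 75.1 and 74.9 CPM and 67.6, 79.2 and 80.9 CPM (log2 0.95, edgeR adjusted p = 0.000383). *Edem2* had 82.2, 88.9 and 60.9 CPM and 86.5, 57.7 and 79.2 CPM (log2 1.14, edgeR adjusted p = 0.00102), and *Os9* had 153, 161 and 121 CPM and 179.6, 110.2 and 153 CPM (log2 1.14, edgeR adjusted p = 0.00178). Neither *Os9* nor *Edem2*, which act on misfolded glycoproteins, differed between the genotypes on SCD by the test. Of the sensors, *Xbp1* had 206, 195 and 162 CPM and 207, 155 and 187 CPM (log2 0.49, edgeR adjusted p = 0.0358) and passed the adjusted p with a fold under the threshold. *Atf6* had 102, 104 and 112 CPM and 98.1, 101 and 105 CPM (log2 0.12, edgeR adjusted p = 0.568), and *Ern1* had 46.2, 51.6 and 70.8 CPM and 29.6, 64.4 and 54.7 CPM (log2 -0.11, edgeR adjusted p = 0.811). The lowest SCD value of *Ern1* was that of wildtype replicate 1. *Eif2ak3* had 51.0, 48.5 and 36.2 CPM and 50.4, 38.1 and 45.7 CPM (log2 0.43, edgeR adjusted p = 0.0624), and *Wfs1* had 21.9, 24.1 and 20.3 CPM and 24.2, 20.9 and 21.9 CPM (log2 0.50, edgeR adjusted p = 0.0271). Like *Xbp1*, *Wfs1* passed the adjusted p but was not called, as its unrounded fold did not exceed the threshold.

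By edgeR, 17 members were called between the diets in *Pax4* R192H but not between the genotypes on HFD, where DESeq2 called 10 of them. They included *Fkbp2*, *Manf*, *Os9* and *Calr*, described above. Means and SDs (n = 3 a group) of the others went from 81.5 ± 26.0 to 216 ± 1.55 CPM for *Dnajb11* (log2 1.40), from 113 ± 18.5 to 176 ± 19.7 CPM for *Dnajb9* (log2 0.65), from 38.3 ± 6.80 to 64.8 ± 4.87 CPM for *Sil1* (log2 0.76) among chaperones and co-chaperones of BiP. Among the isomerases they went from 219 ± 34.6 to 458 ± 30.0 CPM for *Pdia4* (log2 1.07), from 11.0 ± 1.15 to 17.6 ± 0.80 CPM for *Pdia5* (log2 0.68), from 49.7 ± 2.37 to 102 ± 7.10 CPM for *Erp29* (log2 1.04), from 60.4 ± 8.05 to 87.2 ± 10.2 CPM for *Erp44* (log2 0.53), from 104 ± 15.3 to 166 ± 9.11 CPM for *Txndc5* (log2 0.68). In ERAD they went from 131 ± 24.4 to 292 ± 13.3 CPM for *Herpud1* (log2 1.15), from 126 ± 5.62 to 201 ± 61.5 CPM for *Sel1l* (log2 0.68), from 59.0 ± 4.40 to 101 ± 2.69 CPM for *Selenos* (log2 0.77), from 8.78 ± 1.48 to 17.8 ± 5.87 CPM for *Syvn1* (log2 1.02), the last being a gene of few counts whose adjusted p was 0.0498 (edgeR). *Atf6b* went from 10.8 ± 1.07 to 17.1 ± 0.73 CPM (log2 0.67). A missed edgeR threshold between the genotypes on HFD does not show that these genes are alike there, where their log2 fold changes lay between 0.29 and 0.94.

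In wildtype islets no member was called between the diets by edgeR, against 0.371% of tested genes in either direction. Of the 48 members, 12 were higher on HFD at an unadjusted p below 0.05, against 6.86% of tested genes, and 8 were separated upwards, against 8.47%. DESeq2 called *Derl3* alone, against 1.03% of tested genes called higher. The members' median log2 fold change was 0.24, and it turned to -0.05 when libraries were scaled to their totals. Without wildtype SCD replicate 1 it was 0.36, and over all libraries left out in turn it lay between 0.17 and 0.36 with no call by edgeR. With the acinar covariate no member was called (0.251% of tested genes), at a median of 0.23. *Derl3* led with 0.95 (standard error 0.24, edgeR adjusted p = 0.0963), ahead of *Creld2* with 0.74 and *Sdf2l1* with 0.63. Both diet comparisons used different libraries, and over the 48 members their log2 fold changes had a Pearson correlation of 0.775 and a Spearman correlation of 0.656, given as a description, since the members are not independent and share gene-specific properties such as base composition and length.

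**Figure D3:**
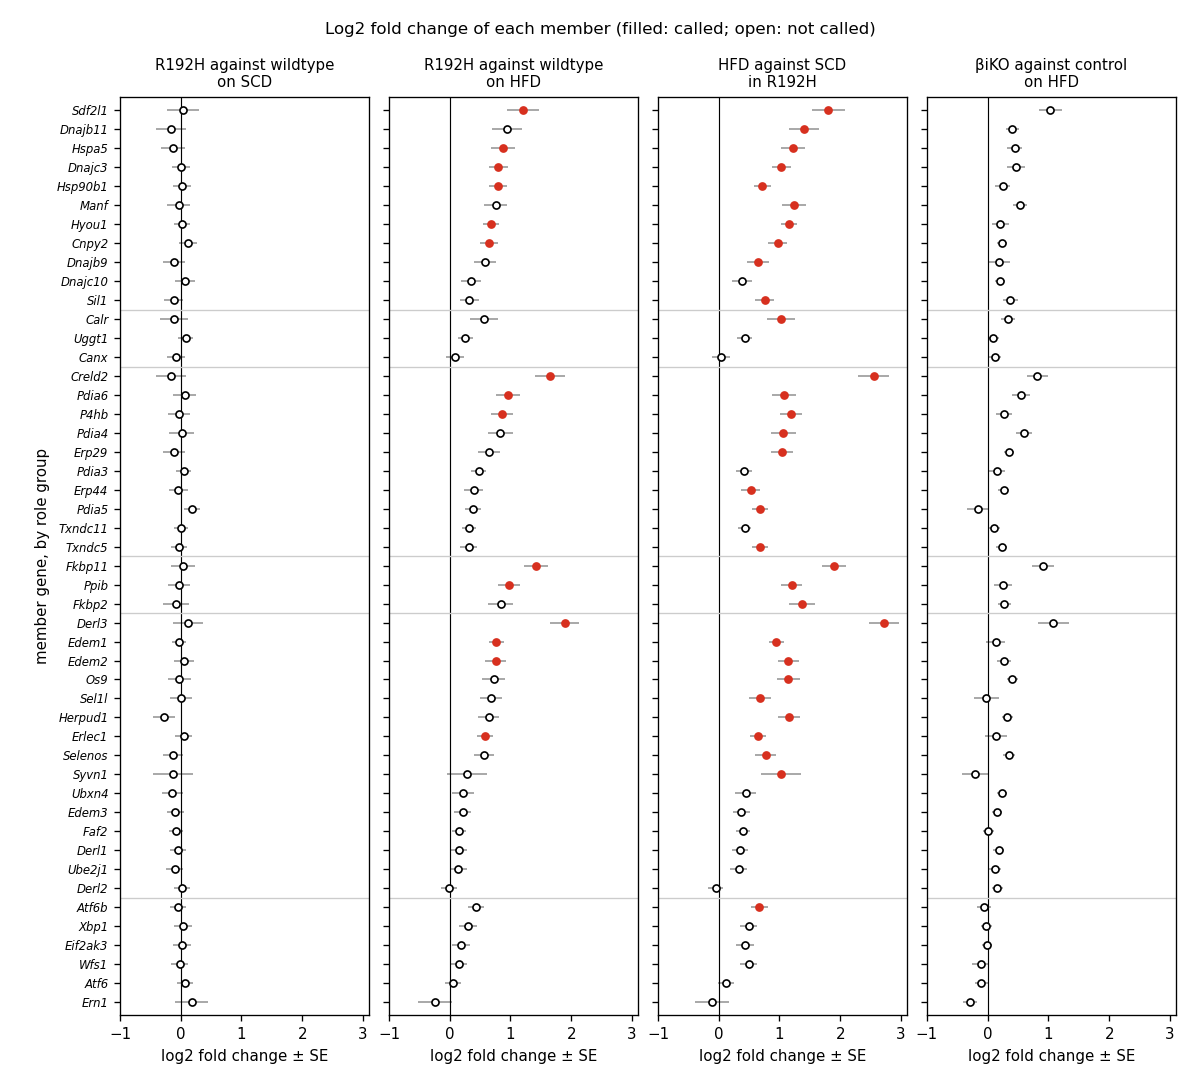
Log2 fold change with its standard error for each member in 4 comparisons, sorted by role and by the fold change between genotypes on HFD; filled points were called by edgeR. On SCD all 48 points lie within 0.28 of 0, on HFD 15 are filled, between the diets in *Pax4* R192H 32 are filled, and in *Pax4* βiKO none is; positions are relative to the bulk of tested genes, and scaling to total counts moves them left in the middle panels.

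The second table asked the same of a loss of *Pax4* in the adult. No member was called between *Pax4* βiKO and control islets by edgeR, against 0.0893% of tested genes. The lowest adjusted p was 0.144, for *Sdf2l1*. An unadjusted p below 0.05 was found for 23 members in the higher direction, against 6.23% of tested genes, and for *Ern1* in the lower direction. DESeq2 called 7 members higher, against 0.456% of tested genes: *Creld2*, *Derl3*, *Fkbp11*, *Manf*, *Pdia4*, *Pdia6* and *Sdf2l1*. In 32 members all 3 βiKO libraries lay above both controls, as in 15.9% of tested genes. The median log2 fold change was 0.23 over the members and 0.01 over all tested genes, and 39 of 48 members lay above 0. With the acinar covariate no member was called (0.0645% of tested genes), the lowest adjusted p was 0.0699 (edgeR) and the median was 0.24.

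Single members showed how far the groups stood apart. *Sdf2l1* had 190, 121 and 140 CPM in *Pax4* βiKO and 67.8 and 79.2 CPM in control islets (log2 1.03, standard error 0.19). *Fkbp11* had 93.0, 60.0 and 66.3 CPM against 38.4 and 39.1 CPM (log2 0.92, standard error 0.18). *Creld2* had 178.5, 122 and 121 CPM against 77.4 and 82.2 CPM (log2 0.82, standard error 0.17). In these 3 genes both controls lay below every βiKO library. *Derl3* had 27.1, 20.7 and 17.4 CPM against 12.9 and 7.66 CPM (log2 1.08, standard error 0.26), and *Hspa5* had 3351, 3234 and 2739 CPM against 2256 and 2308 CPM (log2 0.45, standard error 0.13). *Manf* had 531, 462 and 443 CPM against 307 and 357 CPM (log2 0.53), and *Dnajc3* had 1119, 926 and 809 CPM against 671 and 701.5 CPM (log2 0.47). All 4 were without overlap as well. Other members that were called in the first table lay closer to the controls here. *Edem1* overlapped, with 148, 113.5 and 111 CPM against 128 and 99.0 CPM, and *Hyou1* had 1106, 875.5 and 845 CPM against 830.2 and 801.5 CPM (log2 0.21, standard error 0.14). *Edem2* had 140.2, 114 and 123 CPM against 111 and 98.2 CPM (log2 0.27), *Ppib* 242.5, 178 and 175 CPM against 171 and 162 CPM (log2 0.25) and *P4hb* 1974, 1588 and 1684 CPM against 1540 and 1352 CPM (log2 0.27). *Fkbp2* had 57.1, 46.1 and 51.6 CPM against 43.8 and 41.5 CPM (log2 0.27), *Os9* 292, 264 and 290.2 CPM against 222 and 205 CPM (log2 0.40) and *Calr* 990, 805 and 880 CPM against 716 and 705 CPM (log2 0.33). Of these 8 genes only *Edem1* overlapped between the groups, and βiKO replicate 1 was the highest library in each.

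The sensor genes had the lowest median of the 6 roles in the second table as well, with all 6 log2 fold changes below 0, from -0.29 to -0.01, and a median of -0.08 (edgeR called none). *Ern1* had 88.4, 75.7 and 70.8 CPM in *Pax4* βiKO and 101.5 and 90.0 CPM in control islets, the one member that was separated downwards, as were 16.7% of tested genes (log2 -0.29, standard error 0.11, edgeR adjusted p = 0.346). *Xbp1* had 352, 359 and 345 CPM against 382 and 333 CPM (log2 -0.02), *Atf6* 204, 219 and 177 CPM against 207 and 222 CPM (log2 -0.10), *Eif2ak3* 86.0, 80.2 and 83.9 CPM against 88.2 and 79.6 CPM (log2 -0.01) and *Wfs1* 38.0, 35.1 and 27.7 CPM against 34.3 and 38.6 CPM (log2 -0.12). These 4 overlapped between the groups.

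The genotype comparison on HFD and the βiKO comparison share no library. *Derl3*, *Creld2*, *Fkbp11* and *Sdf2l1* had the 4 largest fold changes in both. Over the 48 members the log2 fold changes of both comparisons had a Pearson correlation of 0.838 and a Spearman correlation of 0.769, given as a description, and 38 members had a fold change above 0 in both. The genotype comparison on SCD and the βiKO comparison had -0.112 and -0.2, and 16 members had a fold change above 0 in both. Ages, time on HFD and controls differed between the tables, so sizes of fold changes are set side by side only.

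Acinar markers ran in different directions in both tables. Between the genotypes on HFD their median log2 fold change was 1.53, all 32 were above 0, and edgeR called 11 and DESeq2 26 higher. Of all tested genes, edgeR called 1.46% and DESeq2 3.50% higher. Between the diets in *Pax4* R192H, where 32 members were called, the median of the acinar markers was 1.84 and both tools called 28 of 32 higher. There edgeR called 9.75% and DESeq2 10.6% of all tested genes higher. In *Pax4* βiKO the median was -0.68, 2 of 32 were above 0 and none was called. Within groups, the HFD-fed *Pax4* R192H library with the highest acinar sum, 106900 CPM, had a mean member log2 CPM of 7.40, beside 7.40 and 7.42 at acinar sums of 39060 and 40890 CPM. In HFD-fed wildtype islets the library with the highest acinar sum, 26250 CPM, also had the highest member mean, 6.98, beside 6.67 and 6.81 at 20210 and 17060 CPM. In SCD-fed islets the highest acinar sum went with a member mean of 6.54 in wildtype (6.73 and 6.42 in the others) and of 6.41 in *Pax4* R192H (6.64 and 6.59). The controls of the second table had means of 7.31 and 7.32 at acinar sums of 112700 and 25120 CPM, and the βiKO libraries 7.72, 7.51 and 7.46 at 87630, 17880 and 23320 CPM. In the second table the 2 libraries highest in acinar markers were thus 1 control and 1 βiKO library. Of the 10 β cell markers, edgeR called 2 and DESeq2 5 lower in HFD-fed *Pax4* R192H islets and none higher, with 4 of 10 above 0. Of all tested genes, edgeR called 0.820% and DESeq2 1.75% lower. In *Pax4* βiKO edgeR called none of the 10, and DESeq2 called 2 lower (0.749% of all tested genes). There 7 of 10 had an unadjusted p below 0.05, as did 12.8% of all tested genes. The 8 plasma and B cell markers, cells rich in the same folding genes, summed to at most 108 CPM in any library of the first table, the highest being a SCD-fed wildtype library. Between the genotypes on HFD 7 of these 8 had a fold change above 0, with a median of 2.43. None was called by edgeR, 1 was called by DESeq2 and 2 had an unadjusted p below 0.05. Their sums were 34.2, 3.78 and 4.75 CPM in the *Pax4* R192H libraries and between 3.85 and 5.24 CPM in wildtype islets on HFD, so that only replicate 1 stood above wildtype. The part of β, plasma and B cells in the members' differences was not tested.

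**Figure D4:**
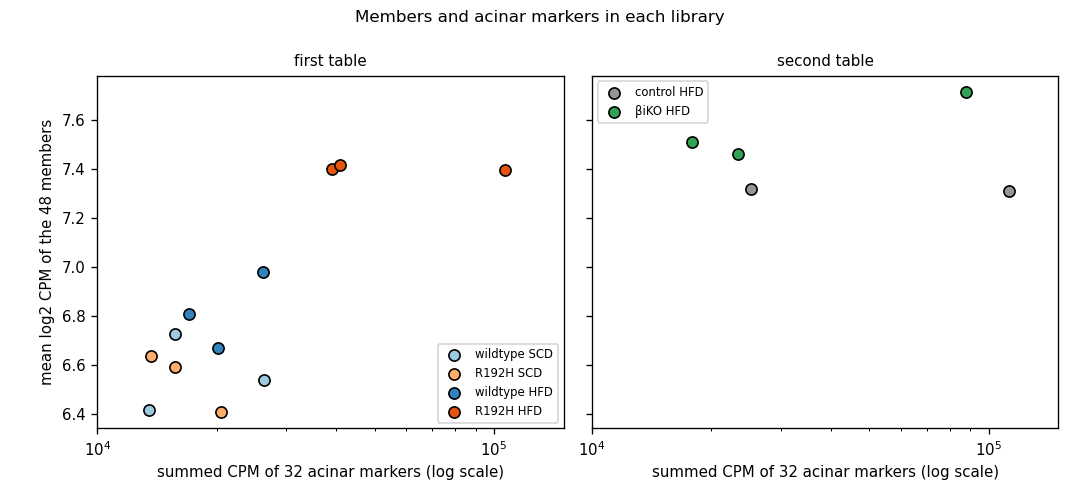
Mean log2 CPM of the 48 members against the summed CPM of 32 acinar markers (log axis), 1 point per library, for each table. The 3 HFD-fed *Pax4* R192H libraries lie between 7.40 and 7.42 over acinar sums from 39060 to 106900 CPM, above the other 9 libraries of their table, and the 3 βiKO libraries lie above both controls; levels are relative to the bulk of tested genes.

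Grouped by promoter motif, the 9 members with an ERSE match had a median log2 fold change of 0.80 between the genotypes on HFD, and 6 of them were called (*Derl3*, *Creld2*, *Hspa5*, *Hsp90b1*, *Dnajc3* and *Pdia6*). The 32 members whose windows held no ERSE had a median of 0.46, and 7 were called. Of all tested genes 1.46% were called higher. Medians with and without the element were 1.03 and 0.67 between the diets in *Pax4* R192H, 0.24 and 0.23 between the diets in wildtype, -0.08 and -0.02 between the genotypes on SCD, and 0.45 and 0.20 in *Pax4* βiKO. The 5 members with TGACGTG had a median of 0.32 between the genotypes on HFD, against 0.57 for the 36 without it. The element did not divide the members cleanly. *Calr*, *Canx* and *Syvn1* hold an ERSE match and were not called between the genotypes on HFD. *Sdf2l1*, *Edem1*, *Edem2*, *Cnpy2*, *P4hb* and *Ppib* were called, although their windows held none of the 3 motifs.

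**Figure D5:**
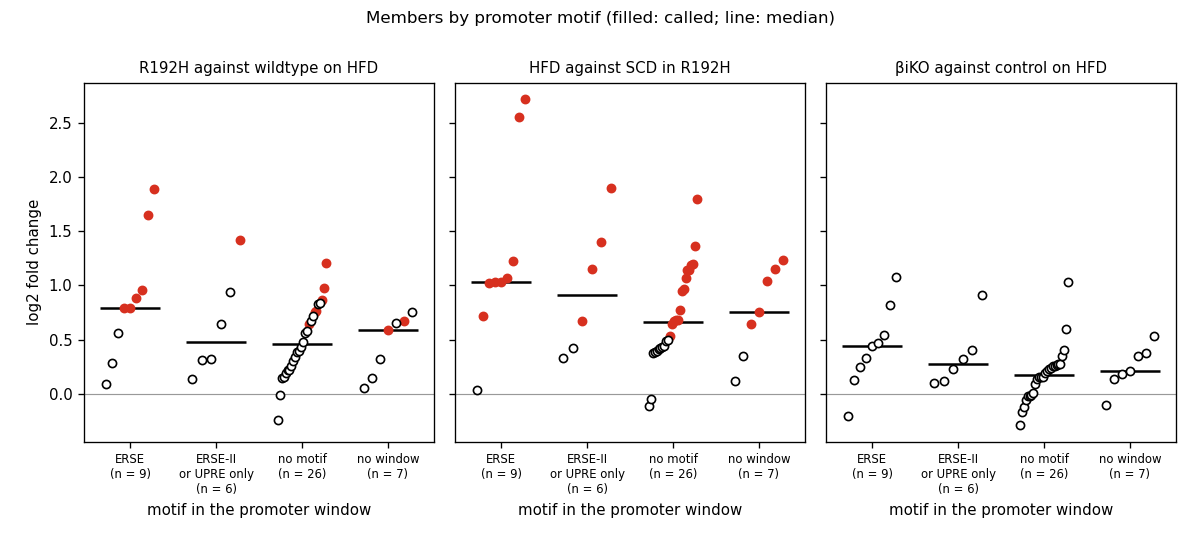
Log2 fold change of each member by the motif in its RefSeq promoter window, in 3 comparisons; filled points were called by edgeR and lines are medians. The 9 members with an ERSE match have medians of 0.80, 1.03 and 0.45; values are relative to the bulk of tested genes.

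Genes of the same pathways outside the 48 were counted in the same fits, from lists written by gene name. Between the genotypes on HFD, edgeR called 1.46% of all tested genes higher and 0.820% lower, and DESeq2 3.50% and 1.75%. Of 33 tested genes of ER folding that are no members, 4 were called higher and none lower in that comparison by edgeR, and 6 and none by DESeq2. The largest were *Pdia2*, an isomerase abundant in the exocrine pancreas, at 1.51 on the log2 scale (standard error 0.33, edgeR adjusted p = 0.0332), *Prdx4*, an ER peroxiredoxin, at 1.19 (standard error 0.20, edgeR adjusted p = 0.00983), and *Qsox1*, a sulfhydryl oxidase, at 0.76 (standard error 0.14, edgeR adjusted p = 0.0153). *Pdia2* differed by -0.78 (standard error 0.79) in *Pax4* βiKO. None of 32 other ERAD genes was called by edgeR, 11 had an unadjusted p below 0.05 (15.9% of all tested genes had one) and DESeq2 called 3. Of 17 other UPR regulators, *Atf5* was called lower (log2 -0.94, standard error 0.13, edgeR adjusted p = 0.00429), and none was called higher by edgeR, while DESeq2 called *Creb3* higher (log2 0.66, edgeR adjusted p = 0.0736, DESeq2 adjusted p = 0.0143), a gene named after its values were seen. Among 25 tested targets of ATF4, the factor downstream of PERK, *Pycr1*, a proline synthesis enzyme, was called higher (log2 1.13, standard error 0.15, edgeR adjusted p = 0.00411) and *Vldlr*, a lipoprotein receptor, lower (log2 -0.68, standard error 0.15, edgeR adjusted p = 0.0344). DESeq2 called 4 of these targets higher and 1 lower. The medians of these 4 lists were 0.27, 0.08, -0.17 and 0.15, against 0.57 for the members and -0.01 for all tested genes. Between the diets in *Pax4* R192H, the lists had 11 higher and 2 lower, 8 higher and 1 lower, 3 higher and none lower, and 5 higher and 1 lower, in the same order, beside calls in 9.75% (higher) and 5.91% (lower) of all tested genes. In *Pax4* βiKO edgeR called none of them, and 10, 2, 4 and 6 of them had an unadjusted p below 0.05, as did 12.8% of all tested genes, while DESeq2 called none.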

How the data were processed

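Total RNA of isolated mouse islets was sequenced by the authors from stranded, paired-end libraries. Per the labels and the study's methods, the authors aligned reads to mm10 with STAR 2.7.1 and deposited RSEM 1.3.3 expected counts per Ensembl gene, 1 table per mouse model; the annotation release is not given in the sources used here. Expected counts were rounded to whole numbers. In R 4.3.3, edgeR 4.0.16 (with limma 3.58.1) filtered low counts (filterByExpr, minimum count 10), scaled by TMM and fitted all groups of a table together with the quasi-likelihood F-test; p-values were adjusted over all tested genes (Benjamini-Hochberg). A call needed an adjusted p under 0.05 and an absolute log2 fold change over 0.5. Levels are CPM, with a prior count of 2 on the log2 scale. DESeq2 1.42.0, other filters and scalings, a replicate block, an acinar covariate and each library left out were the alternatives, of which the scalings to total counts were added after seeing the data; no 2 libraries of a group were alike enough to be 1 library deposited again. The steps were tested on simulated data. GENCODE M21 gave names to 65.8% and 66.7% of the identifiers, coordinates and exon lengths in GRCm38, and RefSeq gave promoters. The 48 members and all gene lists were chosen with earlier results of these data known. Values in every library were given for the 12 members with the lowest adjusted p in any comparison and for *Hspa5*, *Os9*, *Calr*, *Xbp1*, *Atf6*, *Ern1*, *Eif2ak3* and *Wfs1*.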

Additional observations from a re-analysis of the deposited data

How the results depend on the processing

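Percentages give the share of all tested genes called. Between genotypes on HFD the 15 calls (2.28%) became 25 with DESeq2 (5.25%), 25 with no filter on low counts (3.21%), 5 with the replicate block (0.768%), 0 with the acinar covariate (0%), 3 with total counts in place of TMM (4.73%) and 8 with total counts without the 2 most abundant identifiers (6.37%). Leaving out 1 library gave 3 (without wildtype replicate 3, 0.458%) to 20 (without wildtype replicate 2, 2.45%). The members' median was 0.19 and 0.29 under the total-count scalings. The interaction (0 calls, 0.131%) gave 11 with DESeq2 (1.81%), 13 with no filter (1.78%), 3 when every sample had to reach 10 counts (0.577%) and 0 to 5 with 1 library left out, and medians of 0.13 and 0.27 with total counts without and with the 2 identifiers removed. Between the diets, wildtype (0.371%) gave 1 call with DESeq2 (3.03%), 3 with no filter (2.32%) and a median of -0.052 with total counts, and *Pax4* R192H (15.7%) gave 3 calls with the acinar covariate (0.287%), 9 and 20 with the total-count scalings (46.7% and 29.4%), and medians of -0.0011 and 0.29. *Pax4* βiKO (0.0893%) gave 7 calls with DESeq2 (1.2%), 7 with no filter (1.8%) and 4 with the replicate block (0.436%). Deviations of same-numbered samples from their group means had correlations between -0.296 and 0.193. Deviations from means of 2 or 3 libraries cannot show whether same-numbered samples were handled together. The labels name no pairing, so the block is only an alternative. With total counts 17 of the 48 members changed sign between genotypes on HFD, 18 in the interaction, 24 between the diets in wildtype and 22 in *Pax4* R192H. Among the members followed singly (those called in that comparison or named by rule), signs reversed between genotypes on HFD for *Xbp1* (-0.071), *Atf6* (-0.35), *Eif2ak3* (-0.20) and *Wfs1* (-0.26) with total counts, for *Atf6* (-0.24), *Eif2ak3* (-0.0935) and *Wfs1* (-0.14) also without the 2 identifiers, and for *Atf6* (-0.12) with the acinar covariate; with 1 library left out *Atf6* ranged from -0.0335 to 0.18 and *Ern1* from -0.40 to 0.045. Between the diets in *Pax4* R192H they reversed with total counts for *Hsp90b1* (-0.0052), *Dnajb9* (-0.0905), *Pdia5* (-0.045), *Txndc5* (-0.071), *Erp44* (-0.20), *Sel1l* (-0.062), *Erlec1* (-0.080) and *Atf6b* (-0.061), and for *Sel1l* (-0.088) with the acinar covariate. Total-count scaling was chosen after seeing the data. Its shift of all genes is given with the depth; the cause of the other moves was not tested. Groups of 2 or 3 libraries limit the precision of all values.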
